A study of Homo sapiens with 10 samples.

Results

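HHLA1, LINC00458, ABHD12B and SCGB3A2 are 4 of the 31017 genes in the RNA-seq count table of this study, and they were taken as a group because their transcripts have been linked to the activity of the endogenous retrovirus HERV-H in human ESCs. They were also chosen by their expression contrast between ESCs and NECs in these same libraries, so their fold changes are given below as a description with no test. The cells were H9 (WA09) human ESCs, a pluripotent line grown in Pluripro medium and matrix, and neuroectodermal cells (NECs) derived from H9 and harvested on day 7. RNA-seq and promoter capture Hi-C (PCHi-C) were each available for 2 biological replicates of ESCs and 2 of NECs, and the second ESC sample of PCHi-C combined technical replicates. All samples came from 1 cell line, so the spread between replicates does not cover differences between lines. In the RNA-seq each cell type had a sequencing lane of its own, so lane and cell type cannot be told apart.

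HERV-H is a family of endogenous retroviruses whose copies are scattered through the human genome, and its long terminal repeats (LTRs), of the LTR7 group, carry promoter activity in human pluripotent cells. Transcripts that start in such LTRs are spliced into long non-coding RNAs and into chimeric forms of neighbouring genes, and pluripotency factors bind these LTRs. LINC00458 is a long non-coding RNA, HHLA1 was named as a gene associated with an HERV-H LTR, ABHD12B belongs to the alpha/beta hydrolase domain family, and SCGB3A2 encodes a small secreted protein of the airway epithelium.

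The LINC00458 start lay inside a repeated stretch of DNA in GRCh37. A stretch of 400 bases held the start, and a second copy with 96.8% identity lay downstream in the same direction. The pair bounded an element of 5743 bases, the arrangement of an LTR at each end of a provirus. No repeat annotation was used, so the stretches are called LTR-like from this arrangement alone.

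The promoters that RefSeq gives for ABHD12B (GRCh38.p14, chr14:50871803-50872102, plus strand) and SCGB3A2 (GRCh38.p14, chr5:147878461-147878760, plus strand) are shown because they differ in base composition and motifs. Capitals mark the GC box GGGCGG and the TATA box TATAAA, which were searched on both strands together with the octamer ATGCAAAT and the SOX motif CATTGTT.
ABHD12B: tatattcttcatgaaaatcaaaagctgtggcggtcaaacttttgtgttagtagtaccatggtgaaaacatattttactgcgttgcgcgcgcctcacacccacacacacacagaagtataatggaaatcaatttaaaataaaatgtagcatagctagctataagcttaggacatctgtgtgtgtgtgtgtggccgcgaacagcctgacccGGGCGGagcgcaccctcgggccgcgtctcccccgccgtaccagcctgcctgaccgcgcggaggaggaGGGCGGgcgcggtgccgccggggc
SCGB3A2: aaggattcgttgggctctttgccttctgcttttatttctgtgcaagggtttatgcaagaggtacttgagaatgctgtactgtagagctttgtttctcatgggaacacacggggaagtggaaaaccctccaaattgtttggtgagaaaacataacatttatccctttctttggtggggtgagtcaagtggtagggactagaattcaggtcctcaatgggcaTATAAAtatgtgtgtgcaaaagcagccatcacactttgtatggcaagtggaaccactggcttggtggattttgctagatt
The ABHD12B promoter had 54.3% G and C, an observed over expected CpG ratio of 1.04 and 2 GC boxes, a motif that was in 45.0% of the 35114 RefSeq promoters. The SCGB3A2 promoter had 43.3% G and C, a CpG ratio of 0.15 and TATAAA at base 221 of 300, and 11.5% of the RefSeq promoters held that motif. Over all RefSeq promoters the median was 58.7% G and C with a CpG ratio of 0.579. The octamer and the SOX motif were in neither promoter and in 1.77% and 3.33% of all of them. Windows of the same size at the gene starts used in the other paragraphs (GRCh37) differed, so the printed stretches are not the sequence at those starts. Whether the printed SCGB3A2 promoter lies in a repeat copy described below was not tested. There SCGB3A2 had 47.7% G and C, a CpG ratio of 0.261 and no TATAAA. ABHD12B had 67% G and C, a CpG ratio of 1.11 and 4 GC boxes there. These matches describe the letters in the windows only. The RefSeq promoters held 2 of the 4 genes, and HHLA1 and LINC00458 had no entry among them.

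HHLA1 is annotated at chromosome 8, 133073733 to 133123406 on the minus strand, and was the most abundant of the 4 in CPM (counts scaled by library size with TMM factors). It had 1674 and 1809 CPM in the ESC libraries and 3.14 and 9.77 CPM in the NEC libraries. The groups did not overlap, as in 83.8% of the 17564 genes tested (41% with NECs lower). The fitted log2 fold change was -8.05 ± 0.50 (SE). LINC00458 (chromosome 13, 54689924 to 54707001, minus strand) had 649 and 656 CPM in ESCs and 0.328 and 1.66 CPM in NECs, with a log2 fold change of -9.29 ± 0.41. Its 2 ESC values differed by 1.01-fold and its 2 NEC values, which rested on 7 and 41 reads, by 5.07-fold. SCGB3A2 (chromosome 5, 147250245 to 147261754, plus strand) had 609.5 and 635 CPM in ESCs and 1.83 and 3.57 CPM in NECs, with a log2 fold change of -7.83 ± 0.26. ABHD12B (chromosome 14, 51338878 to 51371688, plus strand) was the lowest of the 4, at 25.0 and 39.8 CPM in ESCs and 0.234 and 0.365 CPM in NECs. Its log2 fold change was -6.72 ± 0.37, from 5 and 9 reads in the NEC libraries. In bulk samples, fewer cells that express a gene and less RNA per cell cannot be told apart.

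**Figure D1:**
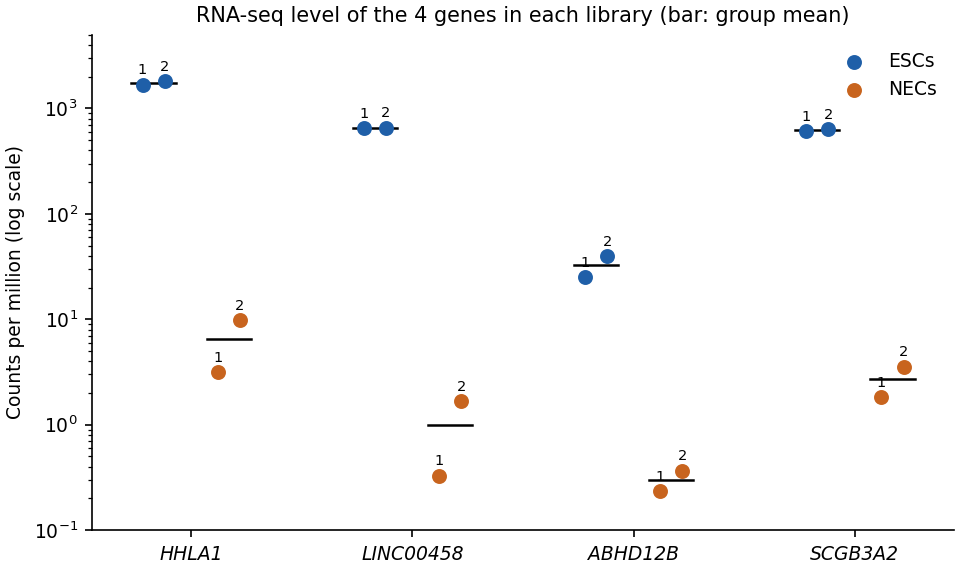
Level of the 4 genes in CPM on a log axis, with 1 point per RNA-seq library, numbered by replicate, and a bar at each group mean. The ESC points of every gene sit above its NEC points, as in 41% of all genes tested. The NEC replicates lie farther apart on the log axis than the ESC replicates for HHLA1, LINC00458 and SCGB3A2.

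All 4 genes lay past the thresholds that called a gene lower in NECs (edgeR adjusted p under 0.05 and a log2 fold change under -1.5), as did 9.68% of the 17564 genes tested, and nothing is read from this count because the contrast chose the genes. Per length of annotated exons the order changed, and SCGB3A2 was the highest. RPKM values, which divide the CPM by the exon length in kb, were in ESCs 567 and 591 for SCGB3A2, 308 and 332 for HHLA1, 138 and 139 for LINC00458, and 5.49 and 8.75 for ABHD12B. The 2 ESC values of each gene did not overlap those of its neighbours in this order. In NECs the RPKM values were 1.70 and 3.32 for SCGB3A2, 0.576 and 1.79 for HHLA1, 0.0695 and 0.352 for LINC00458 and 0.0514 and 0.0802 for ABHD12B, and here the ranges of SCGB3A2 and HHLA1 overlapped, as did those of LINC00458 and ABHD12B.

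NEC replicate 2 held more of each of the 4 transcripts than NEC replicate 1, by 1.56-fold for ABHD12B, 1.95-fold for SCGB3A2, 3.12-fold for HHLA1 and 5.07-fold for LINC00458. The 10 pluripotency markers moved the same way, with NEC replicate 2 higher in 10 of 10 and ratios from 1.29 for LIN28A to 6.09 for TDGF1. The summed level of these markers was 5157 and 5434 CPM in ESCs and 925 and 1375 CPM in NECs. In NECs LIN28A alone gave 729 and 941 CPM. Of the 10 markers, 9 were called lower in NECs, beside 9.68% of all genes tested, and LIN28A was not. POU5F1, the core pluripotency factor, stood at 2.13% and 7.63% of its ESC mean in NEC replicates 1 and 2, and HHLA1 at 0.180% and 0.561%. The part of these transcripts that comes from remaining pluripotent cells was not tested. Without NEC replicate 2 the log2 fold changes were -9.12 for HHLA1, -10.9 for LINC00458 and -8.41 for SCGB3A2, and without NEC replicate 1 they were -7.47, -8.61 and -7.44. Of 10 neuroectoderm markers, 9 were called higher in NECs, beside 11.4% of all genes tested, PAX6 among them with 31 and 28 counts in ESCs and 1848 and 1304 in NECs. Among the airway markers, the secretoglobin SCGB1A1 had 0 counts in both ESC libraries, the surfactant genes SFTPA1 and SFTPC had 0 in all 4 libraries, and NKX2-1, the lung and forebrain factor, had 1 to 2 counts. Of the 9 airway markers 2 were tested, and SFTPB, with 11 and 16 counts in ESCs and 0 and 0 in NECs, was called lower and FOXJ1 higher. The summed level of the 9 airway markers was 2.47 to 3.34 CPM in ESCs and 7.90 to 16.2 CPM in NECs. FOXJ1 alone gave 15.5 of the 16.2 CPM in NEC replicate 1 and 7.21 of the 7.90 CPM in NEC replicate 2. The higher sum in NECs is therefore mostly that of 1 gene and is not read as a rise of the airway markers as a set.

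Between the ESC libraries, ABHD12B was 1.59-fold higher in replicate 2, where the other 3 genes differed by 1.01-fold to 1.08-fold. Mesendoderm and endoderm markers moved with it, with a summed level of 101 CPM in ESC replicate 1 and 231 CPM in ESC replicate 2. Their part in the ABHD12B level was not tested. The shift was not particular to them, as the long non-coding RNA LINC-ROR had 30.1 and 49.7 CPM in these libraries. Of the pluripotency markers, GDF3 had 14.0 and 34.9 CPM, and PRDM14 went the other way with 234 and 173 CPM. EOMES, a mesendoderm factor, had 289 and 1133 counts in these libraries. Of the 10 markers of this list 8 were called lower in NECs and 1 higher, beside 9.68% lower and 11.4% higher of all genes tested. FOXA2, SOX17 and T of this list lost the call without ESC replicate 2. Of 8 neural crest markers 4 were called higher and 1 lower, and of the 3 tested of 7 trophoblast markers 2 were called lower, numbers too small to read against these shares.

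A copy of the LINC00458 element lay at each of the other 3 loci, in a different place relative to the gene. Gene bodies and 30 kb around them were aligned, a window chosen after the 20 kb windows had shown shared stretches of at least 350 bases between LINC00458 and SCGB3A2 and only weaker opposite-strand matches between LINC00458 and HHLA1 (longest 890 bases at 72.1% identity). HHLA1 held a copy in its own direction that covered 90.8% of the element at 87.1% mean identity, from 25.2 to 30.9 kb after the gene start. One of its 3 annotated transcripts starts inside that copy, but outside the matches to the LTR-like stretch that are counted below. ABHD12B held a copy in its own direction that covered 57.1% of the element at 87.0% identity, 21.0 to 24.7 kb after the gene start. Of its 9 annotated transcripts, 2 start inside that copy. SCGB3A2 had 2 copies, one upstream in its own direction that covered 79.8% and ended 1.64 kb before the gene start, and one in the opposite direction that covered 73.1% and spanned the gene start itself. Of 4 annotated SCGB3A2 transcripts, 3 start inside that second copy. By the table's own gene starts, LINC00458 therefore starts in the first LTR-like end and SCGB3A2 in an element that runs against it. HHLA1 and ABHD12B start more than 20 kb upstream of theirs. The SCGB3A2 promoter of RefSeq printed above is another window than this gene start.

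**Figure D2:**
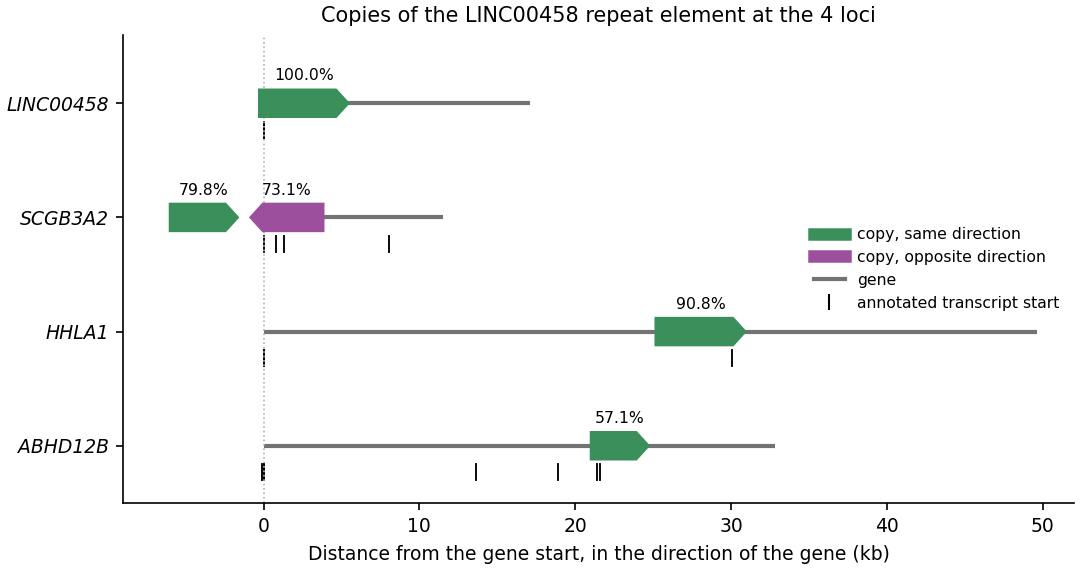
Copies of the LINC00458 element (arrows, percent of the element covered above each) along the 4 genes (grey lines), by distance in kb from the gene start in the direction of the gene, with annotated transcript starts within the plotted range as ticks. The copy at LINC00458 begins at its start, the copies of HHLA1 and ABHD12B lie over 20 kb into the gene, and SCGB3A2 has copies in both directions.

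Because the table's counts cover whole genes, the 4 values do not separate transcripts that start in a copy from the others. RP11-240B13.2, another gene on the HHLA1 strand, starts 25.5 kb after the HHLA1 start at the first end of the HHLA1 copy. It had 1085 and 1676 counts in ESCs and 2 and 2 in NECs. It overlaps HHLA1 on the same strand, so reads of the 2 genes cannot be fully separated, and its counts are no separate measure of the transcript that starts in the copy.

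The repeated stretch of LINC00458 had 2122 matches of at least 300 bases and 75% identity in GRCh37. Annotated transcripts of 29 table genes start inside such a copy in its own direction, LINC00458 and ABHD12B among them. Of the other 27 genes, 25 passed the filter on low counts, and 23 of these 25 were called lower in NECs and 0 higher by edgeR, beside 9.68% lower and 11.4% higher over all genes tested. A gene that passed the filter through its ESC reads alone had to differ, so this share gives no test. Their median log2 fold change was -8.39, or -6.66 with the 5 genes at 0 counts in NECs set at their bound, against 0.01 for all genes tested. Of the 25, 14 had under 10 counts in both NEC libraries. With copies of at least 80% identity the count was 10 of 11, and with the table's own gene start in place of any transcript start it was 21 of 22. The latter takes in 3 genes whose identifiers are not in the GENCODE release used for the transcripts, RP11-69I8.2 among them, which the count of 27 leaves out.

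Among them were the long non-coding RNA LINC-ROR (CTD-2526M8.1 in the table), with 569 and 1229 counts in ESCs and 1 and 1 in NECs, and RPL39L, a paralogue of a ribosomal protein gene, with 1680 and 2101 against 137 and 248. CALB1, which encodes the calcium-binding protein calbindin, had 2217 and 3037 counts in ESCs and 25 and 45 in NECs (log2 fold change -6.30 ± 0.18). TFPI, an inhibitor of coagulation, was the more abundant of the 2 that were not called, with 919 and 1247 counts in ESCs and 555 and 358 in NECs (log2 fold change -1.30 ± 0.25). These genes were named after their values were seen. Transcript starts in copies of the opposite direction were found for 6 table genes, LINC00458 included. Of the other 5, 3 were called lower, beside 9.68% of all genes tested, a number too small to read against this share.

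**Figure D3:**
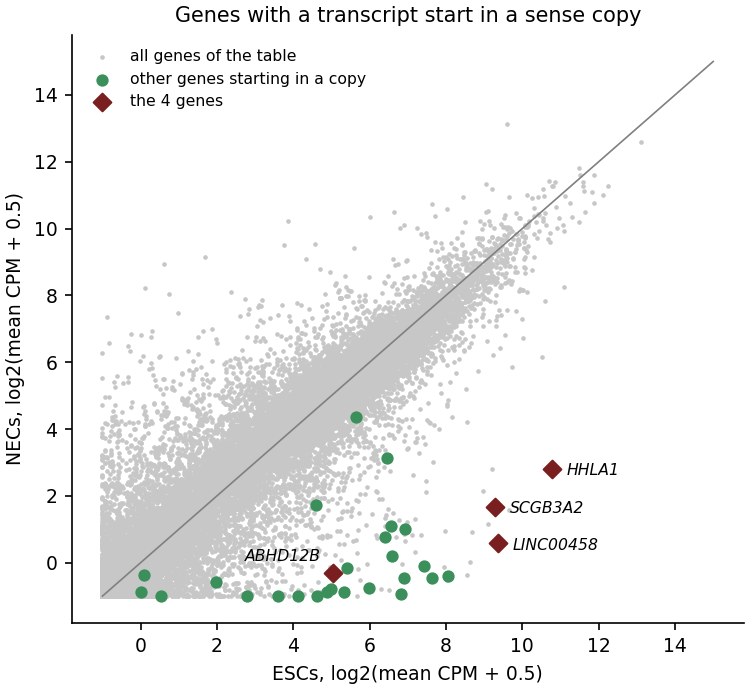
Mean level in NECs against mean level in ESCs, both as log2(mean CPM + 0.5), for all genes of the count table (grey), the 25 tested genes with a transcript start in a copy of the LINC00458 stretch (green) and the 4 genes (diamonds). Most of the green points lie far below the line of equal level, as do the 4 genes.

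Of 15 further genes linked to HERV-H in human ESCs, 14 were matched in the table and 13 tested, and 12 were called lower in NECs and 0 higher (median log2 fold change -4.97), beside 9.68% lower and 11.4% higher of all genes tested. This list was drawn up with earlier results of these data known, and 6 of the 13 had under 10 counts in both NEC libraries and so passed the filter through their ESC reads, so the share gives no test. OC90, the inner ear gene next to HHLA1, had 105 and 143 counts in ESCs and 0 and 0 in NECs, at least 43.5-fold lower against a floor of 3 counts per library. RP11-240B13.2 overlaps OC90 on the same strand, so their reads cannot be fully separated. LNCPRESS1, a non-coding RNA of pluripotent cells, had 524 and 751 counts in ESCs and 3 and 59 in NECs. Its log2 fold change of -4.46 ± 0.67 became -7.64 without NEC replicate 2. HHLA3 was the only tested gene of the list that was not called, at 232 and 370 counts in ESCs and 326 and 329 in NECs (log2 fold change 0.07 ± 0.16). HHLA2, an immune checkpoint ligand of the B7 family, had 121 and 157 against 2 and 2 counts.

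**Figure D4:**
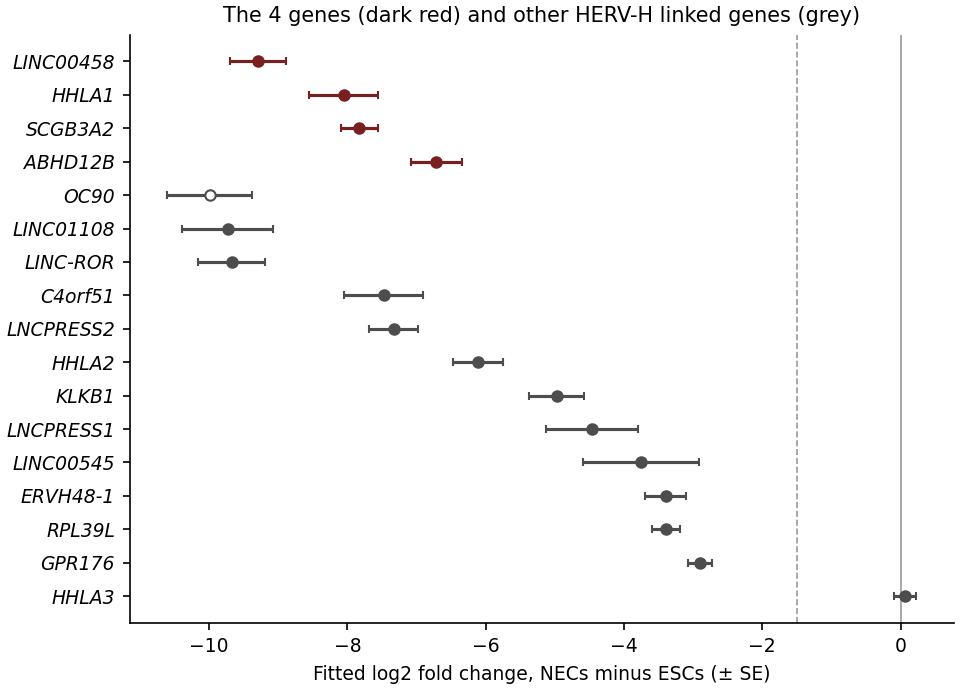
Fitted log2 fold change of NECs minus ESCs with its SE, for the 4 genes (dark red) and the 13 other tested genes linked to HERV-H (grey), with dashed line at -1.5. The open point, OC90, is at 0 counts in both NEC libraries, so its fitted value depends on the prior count, and HHLA3 is the only point near 0.

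Among 10 regulators reported at LTR7, 4 were called lower and 0 higher, beside 9.68% and 11.4% of all genes tested. These were POU5F1 (log2 fold change -4.35 ± 0.57, edgeR adjusted p = 0.00099), NANOG (-5.74 ± 0.37), KLF4 (-2.56 ± 0.33) and TFCP2L1 (-3.75 ± 0.47). SOX2, which is shared by pluripotent and neural cells, had 6482 and 8137 counts in ESCs and 7900 and 10122 in NECs and was not called. Of 13 repressors of retroelements, 1 was called lower and 0 higher, close to the 9.68% of all genes tested and so no result about the list. This was the de novo DNA methyltransferase DNMT3B, which was lower in NECs (log2 fold change -2.77 ± 0.29, edgeR adjusted p = 0.00044). TRIM28, the co-repressor that silences retroelements, had a log2 fold change of -0.44 ± 0.11 and stayed within the fold threshold. Of 8 retroviral envelope genes 5 were matched and 3 tested, and ERVW-1 and ERVH48-1 were called lower and ERV3-1 higher (129 and 143 counts in ESCs, 540 and 694 in NECs).

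In the gene family of SCGB3A2, all 9 other secretoglobins had 0 counts in both ESC libraries, and the 8 other than SCGB1A1 were at 0 in all 4, which allows up to 3 counts in a library. Of 20 other ABHD genes, all tested, 0 were called lower and 3 higher in NECs: ABHD6, ABHD15 and ABHD17A (FAM108A1 in the table), with log2 fold changes of 1.56, 1.51 and 1.53. This is close to the 11.4% called higher over all genes tested and so no result about the family, and each call was lost without ESC replicate 2, at 1.36, 1.22 and 1.34. ABHD12, the nearest in name, had a log2 fold change of -0.25 ± 0.09.

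Neighbouring genes with a start within 250 kb of the 4 gene starts numbered 19, of which 13 were tested and 3 called lower, beside 9.68% of all genes tested, a number too small to read against this share. Besides OC90 and RP11-240B13.2 next to HHLA1, the third was a non-coding gene 89.8 kb from ABHD12B, on the other strand, with 47 and 43 counts in ESCs and 5 and 15 in NECs. OC90 and RP11-240B13.2 overlap each other on the same strand, so their calls are not fully separate. No table gene started within 250 kb of LINC00458. None of the 3 tested neighbours of SCGB3A2 was called, and the protease inhibitor SPINK5, 155 kb away, had 138 and 191 counts in ESCs and 162 and 208 in NECs. PYGL, the liver glycogen phosphorylase whose gene overlaps ABHD12B on the other strand, had 1260 and 1391 counts in ESCs and 936 and 879 in NECs and was not called, and without strand in the counting its reads cannot be told from those of ABHD12B where they overlap.

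By distance in log2(CPM + 0.5) over the 4 libraries, the genes most like the 4 were 13 distinct genes, and SCGB3A2 was itself among the 5 nearest to HHLA1. The nearest to SCGB3A2 was RP11-69I8.2, at a distance of 0.565, and the nearest to LINC00458 was RP11-380P13.2, at 0.911. TDGF1, the NODAL co-receptor, stood among the 5 nearest to HHLA1 and to SCGB3A2. The 5 nearest to ABHD12B were LEPREL1-AS1, RP11-867G2.6, EOMES, RP11-3B12.3 and LINC-ROR, and 3 of these 5 have a transcript start in a copy of the LINC00458 stretch. The table start of RP11-69I8.2 also lay in such a copy, which makes 4 of the 13, a list that includes SCGB3A2. Over the whole table, 29 of 31017 genes have an annotated transcript start in such a copy, LINC00458 and ABHD12B among them. The 13 were picked by their levels in the same libraries that chose the 4 genes, so these shares give no test.

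PCHi-C joins the HindIII fragment of a promoter, the bait, to promoter-interacting regions (PIRs), and the lists hold pairs with a CHiCAGO score of at least 12. The starts of HHLA1 and ABHD12B lay in bait fragments of these lists, and those of SCGB3A2 and LINC00458 lay in fragments that were no bait and no PIR in any of the 6 lists. Of all table genes, 71.6% had their start in a bait. The baits at the HHLA1 and ABHD12B starts both had 0 PIRs in the merged ESC list and 1 in the merged NEC list, where the median over all 21833 baits was 2 and 20.1% and 18.8% of baits had none. The replicate lists held 0 and 2 PIRs of the HHLA1 bait in ESCs and 3 and 5 in NECs, and 1 and 2 of the ABHD12B bait in ESCs and 2 and 1 in NECs. Over all baits the median was 3 in each replicate list, and 10.5% to 12.4% of baits had none. With 2 lists a group, an exact permutation test cannot go below p = 0.3333, and none was made. The lists give scores without reads, and the depth of a call is therefore unknown.

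The single PIR of the HHLA1 bait in the merged NEC list held the start of LRRC6, a gene of cilia assembly, 563.9 kb away (score 12.8). It was also called in NEC replicate 1 (20.03) and ESC replicate 2 (13.5). LRRC6 had 37 and 61 counts in ESCs and 114 and 111 in NECs and was not called. The second bait of HHLA1, which holds the first LTR-like end of its copy, had 1 PIR in the merged ESC list and 0 in the merged NEC list. That PIR was the fragment at the OC90 start, 27.9 kb away, with a score of 15.7 in the merged ESC list, 21.1 in ESC replicate 2 and 12.4 in NEC replicate 2. The PIR of the ABHD12B start bait in the merged NEC list was the second bait of the gene, 10.5 kb away. It holds the start of a non-coding gene on the other strand that had 1 read in the 4 libraries.

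**Figure D5:**
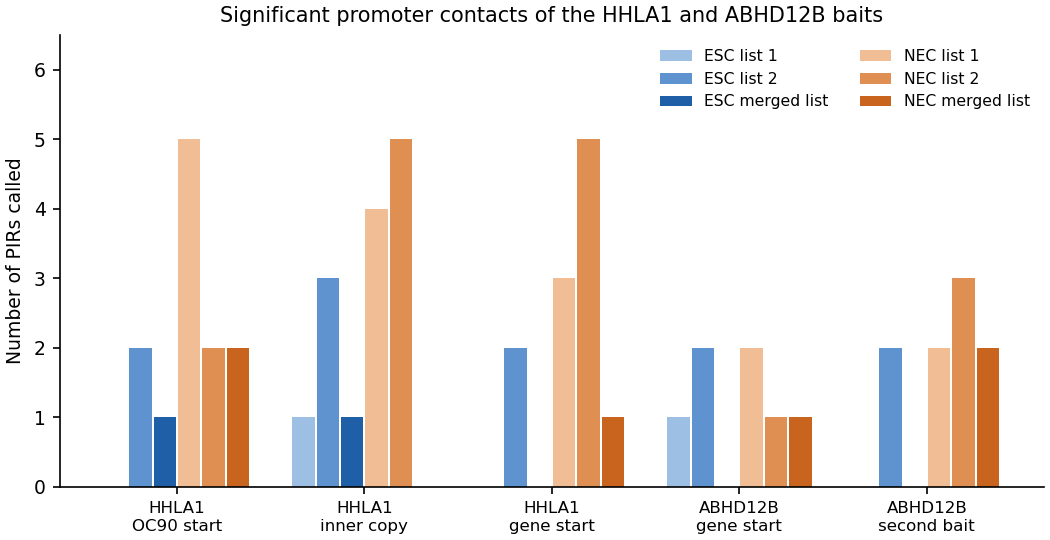
Number of PIRs called for 5 baits of the HHLA1 and ABHD12B loci in the replicate and merged lists of ESCs and NECs. Numbers run from 0 to 5, and they differ between replicate lists of 1 cell type by up to 3.

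The second ABHD12B bait was itself contacted by other promoters in both cell types. The bait of SAV1, a scaffold of the Hippo pathway, 218 kb away, contacted it with a score of 15.4 in the merged ESC list and 14.7 in the merged NEC list, and in all replicate lists but NEC replicate 2. The bait of TMX1, a thioredoxin-related membrane protein gene, contacted it with scores of 15.04 and 14.02 in the merged lists. SAV1 and TMX1 were not called, with log2 fold changes of -0.73 ± 0.13 and -0.84 ± 0.12. The fragment that holds the beginning of the copy in ABHD12B was a PIR in 1 list, ESC replicate 1. For LINC00458 a fragment of its gene body was a PIR of 1 bait 757.2 kb away in the merged ESC list (score 14.4) and in ESC replicate 1 (18.5), and in no NEC list.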

How the data were processed

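RNA-seq was used from 2 ESC and 2 NEC libraries. Reads were trimmed, mapped with TopHat (GRCh37) and counted by the authors on Ensembl genes, ignoring strand, and the deposited values are raw counts (19234087 to 25356382 per library). The interaction lists are the authors' CHiCAGO scores per replicate and merged, called by them from HiCUP-filtered pairs. From the counts, edgeR 4.0.16 (R 4.3.3) fitted a quasi-likelihood model with TMM factors on 17564 genes with a minimum count of 10, and calls needed a log2 fold change beyond 1.5 either way with a p below 0.05 after Benjamini-Hochberg adjustment. The SE is the log2 fold change divided by the square root of F. The fit was tested on simulated data. Stretches were aligned with blastn 2.17.0 to GRCh37, with GENCODE v44 transcripts. The members and lists were chosen with earlier results of these data known. Named were the members, genes within 250 kb, the 5 genes nearest in level, called list genes and genes in PIRs of merged lists, and markers as ranges. With 2 libraries a group, the p-values set the difference between cell types against a spread estimated from these samples with information shared over genes. They cannot tell lane and cell type apart. Conventional Hi-C was not used here, and the sequences of the repeated stretches are not reported here.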

Additional observations from a re-analysis of the deposited data

How the results depend on the processing

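Under all alternatives tried the 4 genes were lower in NECs. The fitted log2 fold changes ranged from -9.12 to -7.47 for HHLA1, -10.9 to -8.61 for LINC00458, -7.09 to -6.35 for ABHD12B and -8.41 to -7.44 for SCGB3A2, and the ends came from leaving out 1 library. The cause of these shifts was not tested.

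Over all genes, 1700 were called lower and 1997 higher. A minimum count of 50 gave 1098 lower, since fewer genes were tested, and no fold threshold gave 5209 lower and 5529 higher. Leaving out 1 library gave 1524 to 1892 lower and 1770 to 2213 higher. Of the genes linked to HERV-H, 12 were called lower in the main fit and 11 to 12 under the alternatives. Of the genes with a transcript start in a copy, 21 to 24 were called lower, where the choice of copies and of these settings was made after seeing the data. Across genes, the deviations of same-numbered samples from their group means correlated at r = 0.061. With 2 samples a group this cannot show whether the numbers pair the samples. With the number as a replicate block, 1711 genes were called lower and 1987 higher, and 12 of the genes linked to HERV-H.

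Among 651 values of other named genes, 15 lost the call and 0 changed direction. ABHD6, ABHD15 and FAM108A1 (ABHD17A) lost it without ESC replicate 2, ABHD6 and FAM108A1 also without NEC replicate 1, and ABHD15 also without NEC replicate 2, with DESeq2 size factors and with DESeq2. LINC00545 lost it with DESeq2. The markers FOXA2, SOX17 and T lost it without ESC replicate 2, SOX17 and T also without NEC replicate 2, and KRT7 without NEC replicate 1.

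For the interaction lists, the ABHD12B start bait had 1 PIR in the merged NEC list, which became 0 with a score of at least 15, with PIRs that are not baits or with calls in both replicate lists, as did the 1 PIR of the HHLA1 bait. It was 3 with all baits that hold a transcript start. In single replicate lists it ranged from 1 to 2 in ESCs and from 1 to 2 in NECs, and the HHLA1 bait from 0 to 2 in ESCs and from 3 to 5 in NECs. The depth of these lists is unknown.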
